A study of Mus musculus with 3 samples.

Results

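Translation factors and aminoacyl-tRNA synthetases were examined in the bone marrow of castrated mice given testosterone or placebo. The members are all genes with a value on each of the 3 arrays whose symbol names an initiation factor (Eif), an elongation factor (Eef), the release factor Etf1 or a cytosolic or mitochondrial tRNA synthetase. The rule reads the name and not the size of a ratio, but it was set with earlier results of these data known. It was met by 36 of 3462 measured genes, namely 21 in the initiation class, 6 in the elongation class and 9 in the synthetase class. Etf1 contributed no member. A further 7 matching genes lacked a value on at least 1 array. Of these, Eef1e1, a small partner of the synthetase complex, had a log2 ratio of -0.35 on T1 and 0.20 on T3. The eIF2 kinase Eif2ak4 (-0.32) and the mitochondrial synthetases Lars2 (-0.19) and Rars2 (-0.17) were measured on T1 alone, and Eif4e2, Eif5a2 and Wars2 on no array.

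C57BL/6 mice were castrated at 7 weeks of age and received slow-release pellets of 12.5 mg (60 days) of testosterone, or placebo pellets, for 4 weeks. All were 17 weeks old at collection, and control animals were castrated too. The 3 two-colour spotted arrays T1, T2 and T3 each compared RNA of 1 treated mouse with RNA of its matched placebo mouse (n = 3 pairs), with testosterone in Cy5 on T1 and T3 and in Cy3 on T2. The tissue is labelled bone marrow, although RNA was isolated from pulverized femora, tibiae and humeri, so that cells of bone and adjoining tissue can be present. Each value is read as the log2 ratio of testosterone to placebo, negative meaning less RNA with testosterone. The base of the log and this direction were inferred rather than stated. Values of 3 arrays in a row follow the order T1, T2, T3. A ratio gives no level, so neither the abundance of a factor nor the presence of a tissue marker could be judged. In bulk tissue, fewer cells of a type and less RNA per cell cannot be told apart.

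Protein synthesis begins when initiation factors bring the initiator tRNA and the small ribosomal subunit to the start codon of a capped mRNA. Elongation factors then deliver charged tRNAs and move the ribosome along, and the synthetases load each tRNA with its amino acid. Cells throttle this machinery mainly at the start, by kinases that phosphorylate eIF2 under stress and by proteins that sequester the cap-binding factor eIF4E. Bone marrow, where blood precursors divide quickly, makes heavy use of all of it.

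Of the 36 members, 1 differed between treatments by limma after Benjamini-Hochberg adjustment over all 3462 genes, the kinase Eif2ak3, which was lower, and 0 were higher. Among all genes tested, 4.91% passed, with 3.24% lower and 1.68% higher, so a count of 1 in 36 (2.78%) lies near the background. Before adjustment, 10 members were lower at p under 0.05 (27.8%, against 16.1% of all genes) and 1 was higher (2.78%, against 12%). The means of 29 members lay below 0 (80.6%, against 62.4% of all genes). Below 0 on all 3 arrays were 19 members (52.8%, against 33.9% of all genes), and above 0 on all 3 were 4 (18.1% of all genes). After centring each array on its median, 25 of 36 means lay below 0 (69.4%), against 51.3% of all genes. The changes were small, with member means from -0.49 to 0.35 and a median of -0.16, where all genes tested had a median of -0.07. The 95% interval of a member reached a median of 0.245 to either side, and that of 25 members included 0.

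**Figure D1:**
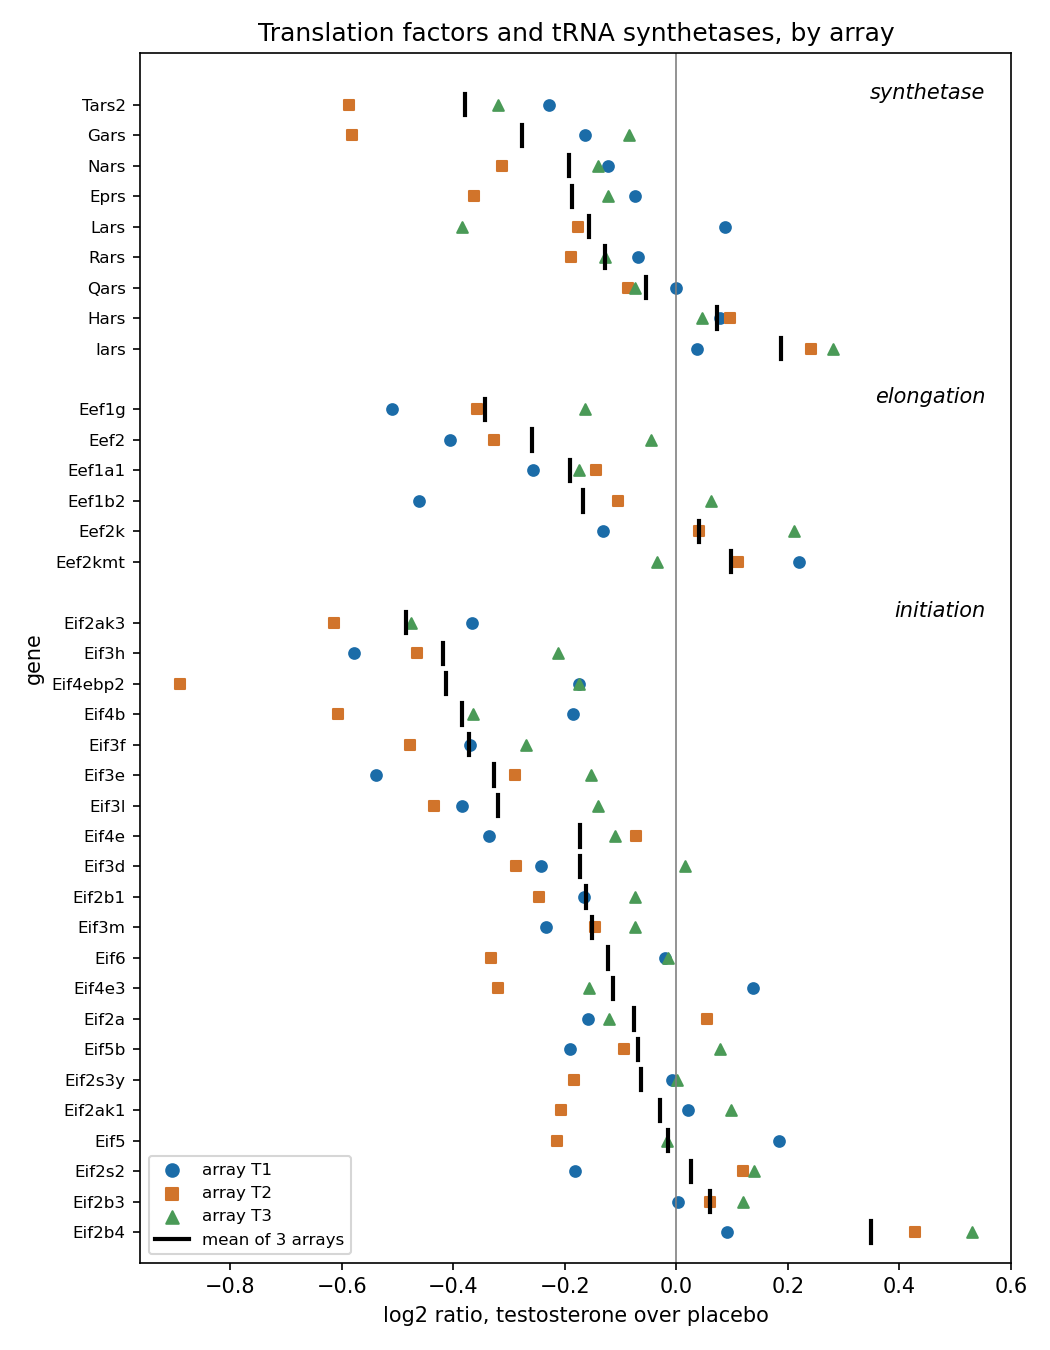
Log2 ratio of testosterone to placebo (x axis) of each of the 36 members (y axis) on arrays T1 (circles), T2 (squares) and T3 (triangles), with the mean of the 3 as a bar, by class and ordered by mean. Most bars lie left of 0, from Eif2ak3 at -0.49, and the rightmost is Eif2b4 at 0.35.

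The member with the lowest mean was Eif2ak3, which encodes PERK, the kinase in the membrane of the endoplasmic reticulum that phosphorylates eIF2 when unfolded proteins accumulate. Its log2 ratio was -0.37, -0.61 and -0.48. All pairs had less with testosterone, and the mean of -0.485 ± 0.12 (SD, n = 3) is a 1.40-fold reduction (95% interval 1.19 to 1.65; limma, adjusted p = 0.0467). The gene was read by 3 spots, of which the lowest 2 carried the same clone, and every spot was below 0 on every array, with means of -0.53, -0.49 and -0.44. Tested one spot at a time, 2 of the 3 passed (limma, adjusted p = 0.0401, 0.0459 and 0.051), where 5.34% of all spots did. The call sat close to the threshold. Leaving out T2 or T3 ended it (adjusted p = 0.227 and 0.273), as did median centring (0.0598). With the sign of T2 turned the mean was -0.08 (adjusted p = 0.999), a setting in which 0 of all 3462 genes passed.

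The heme-regulated kinase Eif2ak1, which couples eIF2 phosphorylation to heme supply in red cell precursors, had ratios of 0.02, -0.21 and 0.10 on T1, T2 and T3. Its mean of -0.03 ± 0.16 (95% interval -0.28 to 0.22) lay within the spread of the pairs. Eif4ebp2, a repressor that binds eIF4E, had -0.17, -0.89 and -0.17, the widest spread of any member (mean -0.41 ± 0.41, limma adjusted p = 0.136). T2 stood apart at both of its spots, with -0.98 and -0.80. Without T1 the mean was -0.53 (limma, adjusted p = 0.0112), a setting in which 623 of all 3462 genes passed, against 170 with all arrays. Without T2 the mean was -0.17 (0.433).

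The measured subunits of eIF3, the large scaffold that holds the small ribosomal subunit during initiation, all had means below 0. Of 6 measured subunits, 5 were below 0 on every array, as were 33.9% of all genes tested, and none passed after adjustment. Before adjustment, 4 were lower at p under 0.05 by limma, as were 16.1% of all genes tested. Eif3h, one of the pair of subunits with an MPN domain, had -0.58, -0.46 and -0.21 (mean -0.42 ± 0.19, 1.34-fold, limma adjusted p = 0.0658). Eif3f, the other of that pair, had -0.37, -0.48 and -0.27 (mean -0.37 ± 0.105, adjusted p = 0.068). Both genes kept the same sign in all 3 pairs, and their intervals did not include 0. Eif3e followed with -0.54, -0.29 and -0.15 (mean -0.33 ± 0.20, adjusted p = 0.114), and Eif3l with -0.38, -0.43 and -0.14 (mean -0.32 ± 0.16, adjusted p = 0.111).

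Smaller values belonged to Eif3m, with -0.23, -0.15 and -0.07, and to Eif3d, a subunit that can itself bind caps, with -0.24, -0.29 and 0.02. The measured subunits together were more negative on T1 (median -0.38) and T2 (-0.36) than on T3 (-0.15). On T3 their values ran from -0.27 to 0.02. The separate spots of Eif3e, Eif3h, Eif3l and Eif3m, 9 in all, were each below 0 on every array, so the direction did not rest on a single spot. Both spots of Eif3e carried the same clone, as did the lowest and the highest of Eif3l. All spots read the same 3 pairs, so they add no replicates.

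Many mRNAs of the translation machinery begin with a C followed by an unbroken stretch of pyrimidines, the terminal oligopyrimidine tract through which mTORC1 adjusts their translation. RefSeq start sites (GRCm38.p6) were available for 4 of the 6 eIF3 subunits. A C with at least 7 further pyrimidines, on the sense strand within 20 bases before to 30 after the annotated start, was found in 3 of these 4. The same search found it in 5 of 16 matched initiation genes (31.2%), eIF3 included, and in 6 of 26 matched members (23.1%). It was found in 1 of 5 matched elongation genes and 0 of 5 matched synthetases. The share was 51.4% of 35 matched genes for cytosolic ribosomal proteins and 19.0% of all genes tested. The windows of 30 bases around these runs are shown for the 3 eIF3 genes and for Eef1a1, as examples from the eIF3 and elongation genes described here, with the longest run in capitals. Counted from the annotated start as base 1, the run begins at base -4 in Eif3f, 5 in Eif3l, -20 in Eif3m, where all of it lies before the start, and -5 in Eef1a1. The Eif3l window also holds a shorter run that meets the rule, left in lower case. Eif2s3y held a run too, as did Eif4e, where all of it lies before the start (from base -12). The windows shown lie at chr7:108934404-108934433 (plus strand) for Eif3f, chr15:79075217-79075246 (plus) for Eif3l, chr2:105017027-105017056 (minus) for Eif3m and chr9:78481710-78481739 (minus) for Eef1a1.
Eif3f: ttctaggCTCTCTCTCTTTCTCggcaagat
Eif3l: tcttcttccgCTCTCTCCCacgggcttctg
Eif3m: acggcaccgCTCTCTTTTCCggtcggcgtg
Eef1a1: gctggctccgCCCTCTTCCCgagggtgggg
A match is a description of these letters at an annotated start, which can differ from the start used in the tissue. No run shown here, that of Eef1a1 included, is therefore established as the tract of a transcript. The arrays measured RNA amount and not translation.

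Among the factors of cap recognition, Eif4b, which stimulates the eIF4A helicase, had -0.185, -0.61 and -0.36 (mean -0.385 ± 0.21, 1.31-fold, limma adjusted p = 0.0835). Its adjusted p was 0.0123 without T1, a setting in which 623 of all 3462 genes passed. The cap-binding protein Eif4e had -0.34, -0.07 and -0.11 (mean -0.17 ± 0.14, adjusted p = 0.308), and its relative Eif4e3 had 0.14, -0.32 and -0.16. Eif4b and Eif4e were thus below 0 in all pairs, and Eif4e3 in 2 of 3. Eif4b was the lowest of these on T2, and Eif4e on T1.

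The eIF2B complex, the exchange factor that reloads eIF2 with GTP, held the highest mean of all members. Eif2b4, its delta subunit, had 0.09, 0.43 and 0.53, above 0 in each pair (mean 0.35 ± 0.23, 1.27-fold, 95% interval 1.06 to 1.54, limma adjusted p = 0.111). Without T1 the mean was 0.48 (adjusted p = 0.0126), the single alternative of those run in which it passed. In that setting 623 of all 3462 genes passed, against 170 with all arrays. Eif2b1, the alpha subunit, had -0.17, -0.25 and -0.07. Eif2b3, the gamma subunit, had means of opposite sign at its spots, described with the other discordant genes. The measured subunits of this complex therefore had no common direction.

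The factors that carry and check the initiator tRNA had means close to 0. Eif2s2, the beta subunit of eIF2, had -0.18, 0.12 and 0.14, and Eif2s3y, the gamma subunit encoded on the Y chromosome, had -0.01, -0.18 and 0.00. Eif2a, an alternative tRNA carrier, had -0.16, 0.06 and -0.12. The GTPase activator Eif5 had 0.19, -0.21 and -0.02, and Eif5b, which joins the ribosomal subunits, had -0.19, -0.09 and 0.08. None of these 5 had the same sign on all arrays, and their means ran from -0.07 to 0.03. Eif6, which keeps free large subunits apart from small ones, had -0.02, -0.33 and -0.01.

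The elongation class consisted of 4 subunits of eEF1 and eEF2, with means below 0, and of 2 modifiers of eEF2. The modifiers Eef2k and Eef2kmt had means near 0 (0.04 and 0.10), and their 95% intervals included 0. The mean of Eef2k averages spots of opposite sign. None of the 6 passed after adjustment. Eef1g, a subunit of the exchange complex that recharges eEF1A, had -0.51, -0.36 and -0.16 (mean -0.34 ± 0.17, 1.27-fold, limma adjusted p = 0.0965). Its exchange partner Eef1b2 had -0.46, -0.11 and 0.06, and the translocase Eef2 had -0.41, -0.33 and -0.045 (mean -0.26 ± 0.19, adjusted p = 0.175). In each of these 3 genes T1 was the lowest pair and T3 the highest.

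Eef1a1, which delivers charged tRNAs to the ribosome, had -0.26, -0.14 and -0.17 as the average of 5 spots (mean -0.19 ± 0.06, adjusted p = 0.238). The means of its spots ran from -0.38 to -0.04, and only 1 of the 5 was below 0 on every array. RNA of its many near-identical processed copies could bind the same spots, and the same holds for Eif2s3y and its X-linked homolog. The methyltransferase Eef2kmt, which acts on eEF2, had 0.22, 0.11 and -0.04.

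T1 held the lowest value of 5 of the 6 elongation genes, against 33.2% of all genes tested, and the class medians by array were -0.33, -0.12 and -0.04. These 5 include Eef1a1, whose spots were lowest on different arrays, and Eef2k, whose mean averages spots of opposite sign. Without T1 the class median of the means was -0.09 in place of -0.18. The 4 subunits of eEF1 and eEF2, without the modifiers, had medians by array of -0.43, -0.23 and -0.10, and a median of means of -0.225. The 46 measured cytosolic ribosomal protein genes had the same order, with medians of -0.34, -0.06 and -0.04, whereas all genes tested had -0.04, -0.12 and -0.06. No difference between classes was tested over the 3 pairs. Neutrophil and granulocyte markers were highest on T1: the 5 measured of 20 listed had a median of 0.60 on T1 (0.27 to 0.77), 0.11 on T2 (-0.73 to 0.29) and -0.15 on T3 (-0.33 to -0.03). Their part in the low elongation values of T1 was not tested.

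**Figure D2:**
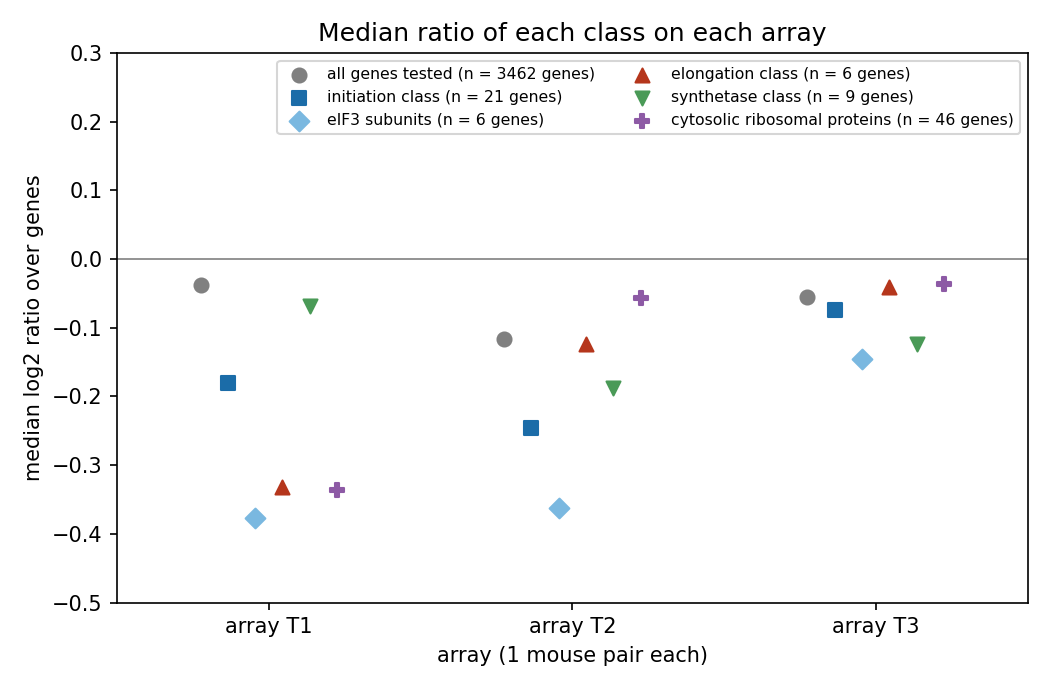
Median log2 ratio (y axis) over the genes of each class on arrays T1, T2 and T3 (x axis), with 1 point per class and array and no error bar, beside cytosolic ribosomal proteins and all genes tested. The elongation class with its eEF2 modifiers (-0.33) and ribosomal proteins (-0.34) lay low on T1 and near the other genes on T3. The eIF3 subunits were low on T1 (-0.38) and T2 (-0.36).

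The synthetase class had 7 of 9 means below 0 (77.8%, against 62.4% of all genes tested), and none passed after adjustment. The 7 include Qars, whose mean of -0.05 averages spots of opposite sign. Tars2, the mitochondrial threonyl-tRNA synthetase and the single member of this class that serves mitochondria alone, had -0.23, -0.59 and -0.32 (mean -0.38 ± 0.185, 1.30-fold, limma adjusted p = 0.0792). Its 2 spots, of the same clone, gave means of -0.41 and -0.35. Without T1 the mean was -0.45 (adjusted p = 0.02), a setting in which 623 of all 3462 genes passed. Gars, the glycyl enzyme of both compartments, had -0.16, -0.58 and -0.08 (mean -0.28 ± 0.27, adjusted p = 0.191), and Nars, the asparaginyl enzyme, had -0.12, -0.31 and -0.14 (mean -0.19 ± 0.105, adjusted p = 0.249). All 3 were lowest on T2.

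The multi-synthetase complex joins several cytosolic enzymes, of which 5 were measured. Eprs, the fused glutamyl and prolyl enzyme, had -0.07, -0.36 and -0.12, and Rars, the arginyl enzyme, had -0.07, -0.19 and -0.13. Lars, the leucyl enzyme, had 0.09, -0.18 and -0.38. Iars, the isoleucyl enzyme, had 0.04, 0.24 and 0.28, above 0 in every pair (mean 0.19 ± 0.13, limma adjusted p = 0.27). The fifth, Qars, is described below, and the complex had no common direction. The histidyl enzyme Hars stayed near 0 on all arrays, with 0.08, 0.10 and 0.05, and its mean of 0.07 had a 95% interval from -0.15 to 0.29.

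T2 held the lowest value of 6 of the 9 synthetases, and of 44.0% of all genes tested. The class medians by array were -0.07, -0.19 and -0.12, the same order as those of all genes (-0.04, -0.12 and -0.06). The median of the means was -0.157, and it was -0.098 without T2 and -0.226 without T1. Skeletal muscle markers were lowest on T2 too, with a median of -0.82 over 7 measured of 24 listed (-1.57 to -0.41), against -0.03 on T1 (-0.19 to 0.12) and -0.41 on T3 (-0.65 to -0.24). Osteoblast and matrix markers (6 measured of 18 listed) had medians of -0.02 (-0.58 to 1.10), -1.03 (-1.16 to 0.63) and -0.11 (-0.86 to 0.15), with Col6a1 lower (-0.81 ± 0.22, limma adjusted p = 0.0107). The part of either tissue in these values was not tested.

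Promoters of several synthetase genes are known targets of ATF4, the transcription factor that follows eIF2 phosphorylation, through a composite element with the letters TGATGNAA. Of the 5 matched synthetases, 2 (40.0%) held these letters on either strand within 250 bases before to 50 after the start, as did 1 of 5 elongation genes, 0 of 16 initiation genes and 2.85% of all genes tested. The windows of 30 bases are shown for the 3 members that held these letters, with the match, which reads on the reverse strand, in capitals. They lie at chr6:55037960-55037989 (plus strand) for Gars, chr13:49682126-49682155 (plus) for Iars and chr7:120851094-120851123 (plus) for Eef2k.
Gars: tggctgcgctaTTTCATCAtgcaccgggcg
Iars: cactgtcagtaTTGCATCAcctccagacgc
Eef2k: ctttctgcttgTTTCATCAagctcagcttg
Gars had a mean of -0.28 (95% interval -0.56 to 0.01) and Iars of 0.19 (-0.05 to 0.425). Both intervals include 0, so neither sign is established, and the mean of Eef2k averages spots of opposite sign. A match of letters does not show that a factor binds there.

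Of the 13 members read by several spots, 3 had spots of opposite sign, so that their gene means near 0 hide discordant readings. The spots of Qars, the glutaminyl-tRNA synthetase, were -0.36, -0.54 and -0.29 on T1, T2 and T3 for the one and 0.36, 0.36 and 0.14 for the other. The first was below 0 and the second above 0 in every pair, by 0.71, 0.90 and 0.43 apart. Eef2k, the kinase that inhibits eEF2, had -0.47, -0.46 and -0.09 at one spot and 0.21, 0.53 and 0.52 at the other, which were 0.68, 0.99 and 0.61 apart. Eif2b3 had -0.18, -0.44 and 0.22 against 0.18, 0.56 and 0.02, with the order reversed on T3. These genes were picked for the opposite signs of their spots, so the gaps are a description and were not tested. Tested one spot at a time, the lower Qars spot had an adjusted p of 0.0655 and the higher Eef2k spot of 0.0644 (limma). In all 3 genes the discordant spots carried different clones.

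Over the 6 pairs of member spots that carried the same clone, 0 had means of opposite sign, against 14.8% of 481 such pairs over all genes tested, and the median gap was 0.08, 0.06 and 0.09. Over the 20 pairs with different clones, 3 had opposite signs, and the median gaps were 0.13, 0.18 and 0.22. Since Eef1a1 with its 5 spots gives many of these pairs, the count by gene is the better guide: 3 of 9 members with different clones had such a pair (33.3%), near the 32.0% of 565 genes over all tested. Which clone reports the coding transcript was not tested, and the gene means of Qars, Eef2k and Eif2b3 (-0.05, 0.04 and 0.06) describe neither spot.

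**Figure D3:**
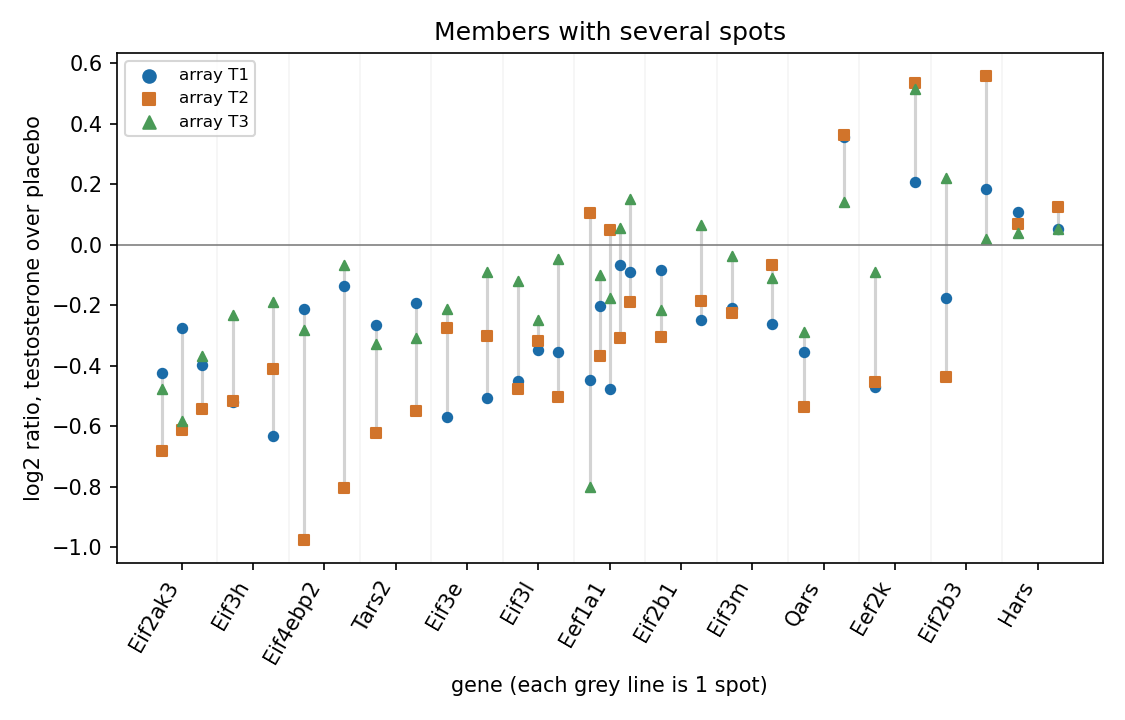
Log2 ratio of testosterone to placebo (y axis) at each spot of the 13 members with several spots (x axis), on arrays T1 (circles), T2 (squares) and T3 (triangles), with a grey line over the range of each spot. Spots of Eif2ak3, Eif3h, Eif3e and Eif3l lay below 0 throughout, and those of Qars and Eef2k lay on both sides.

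Other genes that act on the same steps were read from lists of translation genes, whose counts of called genes stand beside 3.24% lower and 1.68% higher among all genes tested. No list was tested against the other genes. Of 8 measured genes for assembly of the cap complex, poly(A) binding and scanning, 1 was higher and 0 were lower. The higher one was Pdcd4, an inhibitor that sequesters the helicase eIF4A, with 0.39, 0.68 and 0.64 (mean 0.57 ± 0.16, 1.48-fold, limma adjusted p = 0.0385). Paip2, which displaces poly(A)-binding protein, had a mean of -0.33 ± 0.32. The list's median of means was -0.10.

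In the list of the integrated stress response, 2 of 15 measured genes were lower and 0 higher, with a median of -0.04. Psat1, an enzyme of serine synthesis that ATF4 induces, had -0.52, -0.73 and -0.69 (mean -0.65 ± 0.11, 1.57-fold lower, adjusted p = 0.0178). Herpud1, a component of degradation at the endoplasmic reticulum, had -0.65, -0.80 and -0.54 (mean -0.66 ± 0.13, 1.58-fold lower, adjusted p = 0.0178). Both were below 0 in all 3 pairs, as were the kinase Eif2ak3 and 33.9% of all genes tested. A link between these genes was not tested. Of the rest, 3 had an unadjusted p under 0.05 by limma and did not pass after adjustment. Sesn2, a stress-induced inhibitor of mTORC1, had 0.34 ± 0.14 (adjusted p = 0.0913), the transcription factor Cebpg had -0.25 ± 0.10 (0.158), and Shmt2, an enzyme of mitochondrial folate metabolism, had -0.22 ± 0.02 (0.177). The remaining means ran from -0.11 (Aldh18a1) to 0.20 (Impact), with the asparagine synthetase Asns at -0.10 ± 0.08 and the stress factor Ddit3 at 0.10 ± 0.17.

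Among 10 measured genes for synthetase partners and tRNA synthesis (median -0.07), 1 was higher, Bdp1 of the RNA polymerase III initiation factor, with 0.43, 1.62 and 2.36, and 0 were lower (adjusted p = 0.046). Polr3c, a subunit of that polymerase, had 0.33 ± 0.05 (adjusted p = 0.0788), and Farsb, a subunit of the phenylalanyl enzyme, had -0.28 ± 0.26. No gene passed in the lists for mTORC1 signalling (10 measured, median -0.105, with Akt1 at -0.56 ± 0.33 and Lamtor5 at -0.255 ± 0.11), mitochondrial translation factors (5 measured, median 0.05, with Tsfm at 0.36 ± 0.16 and Gfm2 at -0.26 ± 0.11) or termination, recycling and rescue (3 measured, median -0.145, with Nemf at -0.28 ± 0.07 and Gspt1 at -0.145 ± 0.04). In these 3 lists, 2, 3 and 1 genes had an unadjusted p under 0.05 by limma, beside 16.1% lower and 12% higher among all genes. The calls of Pdcd4, Psat1, Herpud1 and Bdp1 were each lost without T2 (adjusted p = 0.213, 0.131, 0.13 and 0.24) and without T3 (0.273, 0.241, 0.154 and 0.255). With the sign of T2 turned each had an adjusted p of 0.999, and 0 of all 3462 genes passed. The call of Bdp1, whose mean was 1.02 without T3, was also lost after median centring (0.0575), with a dye term (0.0564), with centring and scaling (0.0501) and with robust eBayes (0.0894).

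**Figure D4:**
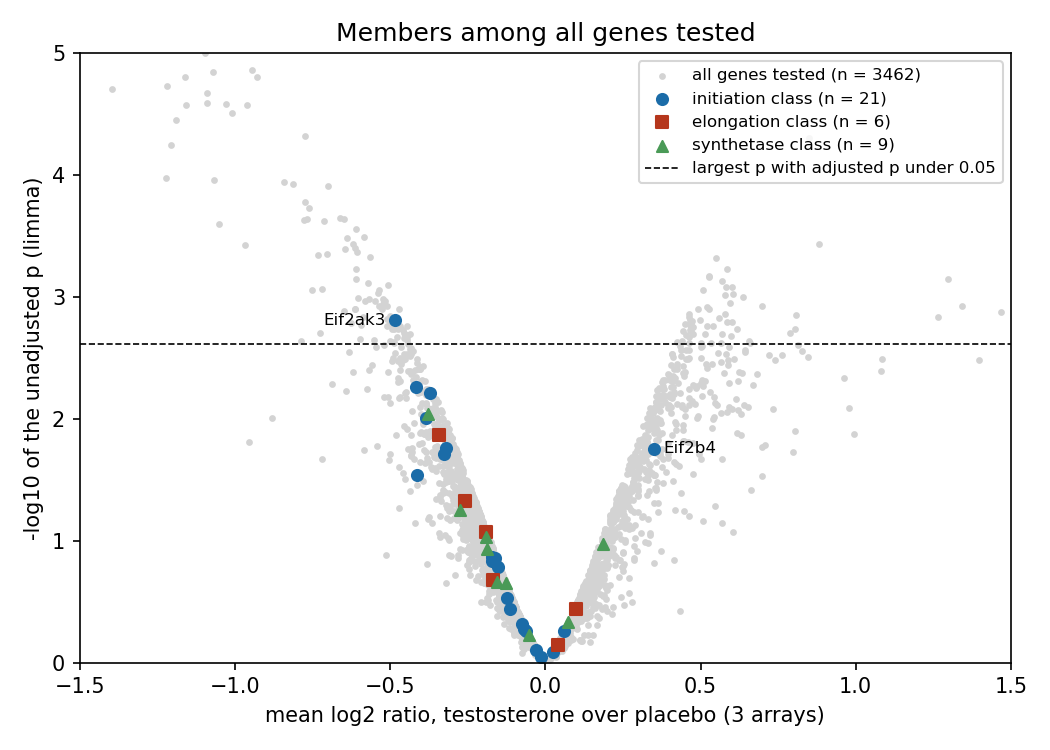
Mean log2 ratio of 3 arrays (x axis) against -log10 of the unadjusted limma p (y axis) for all 3462 genes tested (grey) and the members by class. Eif2ak3 lies above the dashed line, which marks the largest p with an adjusted p under 0.05, the other 35 members lie under it, and 20 genes lie outside the plotted range.

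Markers of B lymphocytes, the antibody-producing lineage that matures in marrow, included the most negative ratios of any list described here. Of 11 measured of 28 listed, 9 were lower and 0 higher, with medians by array of -2.08, -2.07 and -1.65 and gene means from -2.98 (Vpreb3) to 0.09 (Cd24a). Among them Bank1 (-0.51), Ms4a1 (-0.25) and Cd24a lay within or near the range of the members. Erythroid markers (7 of 30 measured) had medians of 0.10, 0.38 and 0.32 and monocyte and macrophage markers (8 of 16) of 0.25, 0.11 and 0.12, with 0 passing in either list. Whether these cell types had a part in the lower values of Eif2ak3, eIF3 and the elongation factors was not tested.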

How the data were processed

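The values, read as log2, are signed ratios of the 2 channels of each array, 1 per spot, as deposited by the authors. Base 2 was inferred from the range (-3.37 to 4.47), and a natural log, which would make every fold larger, is possible. Positive was taken to mean more RNA with testosterone, which the design text calls the experimental channel, also on the dye-swapped T2, which correlated positively with T1 (0.422) and T3 (0.733). For scanner, background correction, normalization and filter, the method is not given in the sources used here. All 32 consecutive runs of 361 spots had means near 0, so ratios are relative to the average spot. Values existed for 9007 (T1), 6771 (T2) and 6982 (T3) of 11552 spots. Spot brightness was not analysed here, and the number of arrays limits the precision.

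Spots with exactly 1 annotated gene (8050; 672 had several, 2830 none) whose Entrez ID matched the RefSeq table of GRCm38.p6 (7880) were kept. The 4554 with a value on all arrays were averaged per gene and tested against 0 (lmFit and eBayes, limma 3.58.1, R 4.3.3, two-sided, Benjamini-Hochberg over 3462 genes, threshold 0.05). The procedure was tested on simulated data, where it recovered 48% of 50 genes moved by a log2 ratio of 0.5 and 74% of 50 moved by 1.0. The largest absolute mean of a member was 0.485, so changes of the members' size can be missed. Sequences are from RefSeq promoter tables, which matched 26 of 36 members. Alternatives were the sign of T2 turned, each array left out, median centring, centring with scaling, every spot per array, spot level, robust eBayes, a dye term and a threshold of 0.10. Members could all be named. Array values were given for those that passed, the extremes and widest spreads of each class, complexes and discordant spots, and listed genes were named where they passed or had the 2 smallest p. Sesn2, Cebpg, Shmt2, Aldh18a1, Impact, Asns, Ddit3, Farsb, Col6a1 and the B lineage genes were named after their values were seen. Members and lists were chosen with earlier results of these data known. The labels do not state that pairs came from separate cages or litters.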

Additional observations from a re-analysis of the deposited data

How the results depend on the processing

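The count of 1 lower member was 0 with T2 turned, 0 after median centring, 4 with a dye term (Eif2ak3, Eif4ebp2, Eif4b and Tars2), 2 spots at spot level and 6 at a threshold of 0.10. It ranged from 0 to 4 when arrays were left out, and the count of 0 higher members from 0 to 1. Over all 3462 genes, in either direction, 170 passed. There were 83 after median centring, 385 with a dye term and 498 (14.4%) at a threshold of 0.10. At spot level 243 of 4554 spots passed. Without T1 the count over all genes was 623, without T2 35, without T3 33 and with T2 turned 0. Class medians stayed below 0 except with T2 turned, where initiation was 0.002 and synthetases 0.012 (elongation -0.069). The synthetase median was -0.092 after median centring and ran from -0.226 to -0.098 without single arrays, that of elongation from -0.242 to -0.09 and that of initiation from -0.19 to -0.12. Turning T2, which reads its deposited ratio as placebo over testosterone, reversed 15 of 36 member means: Eif4ebp2 0.18, Eif4b 0.019, Eif3d 0.02, Eif2b1 0.002, Eif6 0.099, Eif4e3 0.10, Eif2s3y 0.059, Eif2ak1 0.108, Eif5 0.128, Eif2s2 -0.054, Tars2 0.012, Gars 0.111, Nars 0.017, Eprs 0.055 and Qars 0.004. Median centring and centring with scaling reversed means near 0: Eif2s3y (0.003 and 0.013), Eif2ak1 (0.037 and 0.056), Eif5 (0.051 and 0.071) and Qars (0.012 and 0.009). Without single arrays, means also reversed for Eif2ak1 (up to 0.06), Eif5 (up to 0.084), Eif2s2 (-0.03 to 0.13) and Eef2k (-0.046 to 0.126). The cause was not tested.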
